A study of Mus musculus with 6 samples.

Results

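Btk, Fgr, Lyn, Fes, Syk, Lcp2, Plcg2, Inpp5d and Vav1 are 9 of the 33965 genes in a gene table made from MC38 tumors. They were taken by gene name as the tyrosine kinases, adaptor, effectors and lipid phosphatase that act behind the activating receptors of myeloid cells. All 9 were found and all 9 passed the filter on low counts, as did 19602 genes in all. MC38 is a mouse colon carcinoma line, and the tumors grew under the skin of C57BL/6 mice with an intact immune system. The mice were female and were bought at 6 weeks of age. The study asked how the tumor transcriptome differs after treatment with GB2, a prodrug in which the STING agonist MSA-2 is joined through a glutathione-cleavable disulfide to artesunate, used as an inhibitor of TREM2. Whole tumors were sequenced, 3 labelled PBS, the vehicle, and 3 labelled GB2, which is given into the vein. The dose in the MC38 model is 10 mg/kg, and neither the dose nor the collection time is stated separately for the sequenced tumors. The study's methods state in general that data come from independent biological experiments, but the labels do not say that each library is a separate animal, so the p-values measure the spread between these samples, which may be technical.

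Activating receptors of myeloid cells signal through short tyrosine motifs, the ITAMs, carried by partner subunits such as DAP12 (Tyrobp) and the Fc receptor gamma chain (Fcer1g). SRC-family kinases such as LYN and FGR phosphorylate these motifs, SYK docks on them and is activated, and BTK and the adaptor SLP-76 (Lcp2) then bring in PLCG2, which raises calcium, and VAV1, which turns on RAC and the actin skeleton. SHIP1 (Inpp5d) dephosphorylates the lipid that recruits BTK and so limits the signal, and FES is a further cytoplasmic kinase of myeloid cells.

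All 9 genes were higher in the GB2 tumors, by 1.71-fold for Syk up to 4.09-fold for Vav1, and in each of them the 3 GB2 tumors lay above the 3 PBS tumors. Of all genes tested, 9475 (48.3%) were higher to any degree, 1687 (8.61%) had all GB2 tumors above all PBS tumors and 1309 (6.68%) had the opposite order. In edgeR's quasi-likelihood test, 0 of the 19602 genes (0%) met both limits for a call, a Benjamini-Hochberg adjusted p below 0.05 and a difference of 2-fold or more, so 0 of the 9 did. At an unadjusted p under 0.05, 920 genes (4.69%) were higher in GB2, and all 9 genes were among them. A level 2-fold or more higher in GB2 was found in 1441 genes (7.35%) whatever their p and in 733 (3.74%) with such a p, while 180 (0.918%) were 2-fold or more lower with such a p, and 7 of the 9 genes were in both counts of higher genes, Syk and Plcg2 being below 2-fold. DESeq2, run on the same counts, called 373 of the 22545 genes with an adjusted p (1.65%) in either direction and 337 (1.49%) as higher, among them 4 of the 9: Lyn, Fes, Inpp5d and Vav1. The median log2 fold change over all genes tested was -0.02. The 9 genes were proposed with earlier results of these libraries known, so their shared direction is a description.

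The libraries held 64764405 to 69878156 counts in the PBS group and 81210553 to 83690056 in the GB2 group. Levels between tumors are given as CPM, the counts scaled by library size with TMM factors. Low counts piled up at multiples of 4, with 7017 values of 4 in the table against 2984 values of 3 and 2017 values of 5. There were likewise 3462 values of 8 against 1680 of 7 and 1402 of 9. Values of 1 (5446) and 2 (4996) were also common, so a rule of 4 does not hold for all counts. A read pair may often add about 4 counts, which was not tested. If so, Btk rests on 6 to 30 read pairs per tumor and Syk on 100 to 314. PBS tumor 1 stood apart from the other 5 libraries on the first principal component, which held 34.0% of the variance, and without it the 9 log2 fold changes were 0.67 to 1.87, all at an unadjusted p under 0.05. Tumor epithelium markers were low in both groups, at 2.60 to 5.90 CPM in sum in PBS and 3.28 to 7.74 CPM in GB2. Epcam, an epithelial adhesion molecule, was at 0.284 ± 0.152 CPM in PBS and 0.884 ± 0.125 CPM in GB2 (SD, n = 3). Of the 4 tested, Epcam alone had all GB2 tumors above all PBS tumors. At such levels the markers do not measure the content of cancer cells, and the counts do not separate cancer cells from host cells. In bulk tissue, fewer cells of a type and less RNA per cell cannot be told apart.

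The upstream sequences of the genes are shown because all 9 genes were higher in the same tumors and a motif of the ETS factor PU.1 (Spi1), a regulator of myeloid genes, can be looked for in them. RefSeq promoters on GRCm38.p6, from 250 bases before to 50 after each start, matched 8 of the 9 genes, with no entry used for Lyn and with 2 promoters for Syk. The 250 bases upstream of Vav1 (chr17:57278850-57279099, plus strand) and of Inpp5d (chr1:87620062-87620311, plus strand) read as follows 5′ to 3′, with the 6-letter core GAGGAA in capitals.
Vav1: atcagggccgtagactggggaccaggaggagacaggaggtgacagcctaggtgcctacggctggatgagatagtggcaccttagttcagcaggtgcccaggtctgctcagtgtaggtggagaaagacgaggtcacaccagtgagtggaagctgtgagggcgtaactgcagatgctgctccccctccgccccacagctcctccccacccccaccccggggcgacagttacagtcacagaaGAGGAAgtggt
Inpp5d: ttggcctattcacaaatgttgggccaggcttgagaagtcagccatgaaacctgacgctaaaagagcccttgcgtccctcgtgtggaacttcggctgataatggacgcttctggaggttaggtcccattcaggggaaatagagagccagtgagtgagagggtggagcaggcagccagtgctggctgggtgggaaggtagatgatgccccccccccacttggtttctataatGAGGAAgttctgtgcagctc

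The core GAGGAA, searched on both strands, was in a promoter of 7 of the 8 genes, all but Plcg2, against 31.3% of 27025 genes, and in 7 of their 9 promoters, against 28.3% of 32851 promoters. Of the 2 Syk promoters, the upstream one did not hold it, and the Syk window printed here is from the other. The longer GAGGAAGT, which contains the core, was in Vav1 and Inpp5d (2 of 8 genes) and in 3.69% of all genes. TATAAA was in 0 of the 9 promoters of these genes and in 13.6% of all promoters. The 30-base windows around the core in 5 other genes are given in the direction of the gene, in capitals GAGGAA or its reverse complement TTCCTC. A match is a run of letters and no binding was measured.
Btk (chrX:134583114-134583143, minus strand): ctcagactgtccTTCCTCtctggactgtaa
Fgr (chr4:132974114-132974143, plus strand): gtccgagacggcTTCCTCctccctccccag
Fes (chr7:80387908-80387937, minus strand): gaaaccacggagGAGGAAgcaggaatcagg
Syk (chr13:52596861-52596890, plus strand): tgctgacactttGAGGAAaagccacttccc
Lcp2 (chr11:34046920-34046949, plus strand): aagccccctttgTTCCTCttcctgcttggc

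The positions of genes in the table are on other coordinates than GRCm38: of 31999 gene identifiers shared with the GRCm38 annotation, 641 had the same start and end. The following positions are the table's own. Among the SRC-family kinases, Lyn (ENSMUSG00000042228, chromosome 4, 3678115 to 3813122, plus strand), which both starts ITAM signaling and feeds inhibitory receptors, stood at 4.30, 4.47 and 3.68 CPM in PBS tumors 1, 2 and 3 and at 9.37, 7.37 and 12.7 CPM in GB2 tumors 1, 2 and 3. The controls were close to each other, GB2 tumor 3 was the highest, and the groups did not overlap. Its mean was 4.15 ± 0.416 CPM in PBS and 9.82 ± 2.70 CPM in GB2 (SD, n = 3), and its log2 fold change was 1.24 (SE 0.28, adjusted p = 0.269 in edgeR, 0.00585 in DESeq2).

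Fgr (ENSMUSG00000028874, chromosome 4, 132701413 to 132729221, plus strand), the SRC-family kinase of neutrophils and monocytes, was at 0.338, 0.866 and 0.523 CPM in the PBS tumors and at 1.70, 1.58 and 1.80 CPM in the GB2 tumors. The GB2 tumors lay within a narrow range, PBS tumor 2 was the highest control, and the groups did not overlap. The log2 fold change of Fgr was 1.55 (SE 0.43, edgeR adjusted p = 0.385), and without PBS tumor 2 it was 1.97.

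Fes (ENSMUSG00000053158, chromosome 7, 80027504 to 80037694, minus strand), a kinase with an F-BAR domain that binds membranes, was at 2.13, 4.40 and 2.55 CPM in the PBS tumors and at 7.84, 5.99 and 6.98 CPM in the GB2 tumors. PBS tumor 2 again stood nearest to the treated tumors, and the groups did not overlap. Fes differed by a log2 fold change of 1.20 (SE 0.34), with an adjusted p of 0.410 in edgeR and of 0.0477 in DESeq2.

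Syk (ENSMUSG00000021457, chromosome 13, 52737539 to 52802818, plus strand), the kinase that docks on phosphorylated ITAMs, was at 8.12, 8.35 and 5.63 CPM in the PBS tumors and at 10.7, 12.4 and 14.8 CPM in the GB2 tumors. The groups did not overlap, but the lowest GB2 tumor was only 1.28 times the highest PBS tumor. Its log2 fold change of 0.78 (SE 0.26, edgeR adjusted p = 0.545) was the smallest of the 9.

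Btk (ENSMUSG00000031264, chromosome X, 133443085 to 133483889, minus strand), the TEC-family kinase that phosphorylates phospholipase C gamma, was at 0.643, 0.483 and 0.368 CPM in the PBS tumors and at 1.24, 0.926 and 1.44 CPM in the GB2 tumors. GB2 tumor 2 was the lowest of its group and still above each PBS tumor. The log2 fold change was 1.27 (SE 0.41, edgeR adjusted p = 0.527).

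Lcp2 (ENSMUSG00000002699, chromosome 11, 33996920 to 34042295, plus strand) encodes the scaffold on which effectors are assembled, and was at 1.25, 1.97 and 0.693 CPM in the PBS tumors and at 2.82, 3.49 and 4.73 CPM in the GB2 tumors. PBS tumor 3 was lowest and GB2 tumor 3 highest, and the groups did not overlap. The log2 fold change of Lcp2 was 1.49 (SE 0.44, edgeR adjusted p = 0.448).

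The effector Plcg2 (ENSMUSG00000034330, chromosome 8, 118225030 to 118361881, plus strand), which cleaves a membrane lipid to release the calcium signal, was at 5.58, 8.42 and 9.72 CPM in the PBS tumors and at 16.4, 14.3 and 12.3 CPM in the GB2 tumors. PBS tumor 3 and GB2 tumor 3 were the nearest across the groups, at a ratio of 1.26. Plcg2 had a log2 fold change of 0.86 (SE 0.27, edgeR adjusted p = 0.509).

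Vav1 (ENSMUSG00000034116, chromosome 17, 57586100 to 57635031, plus strand), the exchange factor for RAC of blood cells, was at 0.643, 1.06 and 0.891 CPM in the PBS tumors and at 2.53, 2.61 and 5.52 CPM in the GB2 tumors. Its groups were the farthest apart, with the lowest GB2 tumor 2.37 times the highest PBS tumor, and GB2 tumor 3 was well above the other two. The log2 fold change of 2.03 (SE 0.43, adjusted p = 0.243 in edgeR, 0.00137 in DESeq2) was 1.57 without GB2 tumor 3.

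The phosphatase Inpp5d (ENSMUSG00000026288, chromosome 1, 87548034 to 87648229, plus strand), which opposes the kinases at the membrane, was at 1.67, 2.60 and 2.15 CPM in the PBS tumors and at 5.79, 4.83 and 7.92 CPM in the GB2 tumors. The groups did not overlap, and this negative regulator was higher in the same tumors as the activating genes. Inpp5d had a log2 fold change of 1.53 (SE 0.32) and the smallest edgeR adjusted p of the 9, 0.234, with 0.00137 in DESeq2. The exact two-sided permutation test over tumors gave p = 0.1 for each of the 9 genes, the smallest p that 3 against 3 allows.

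**Figure D1:**
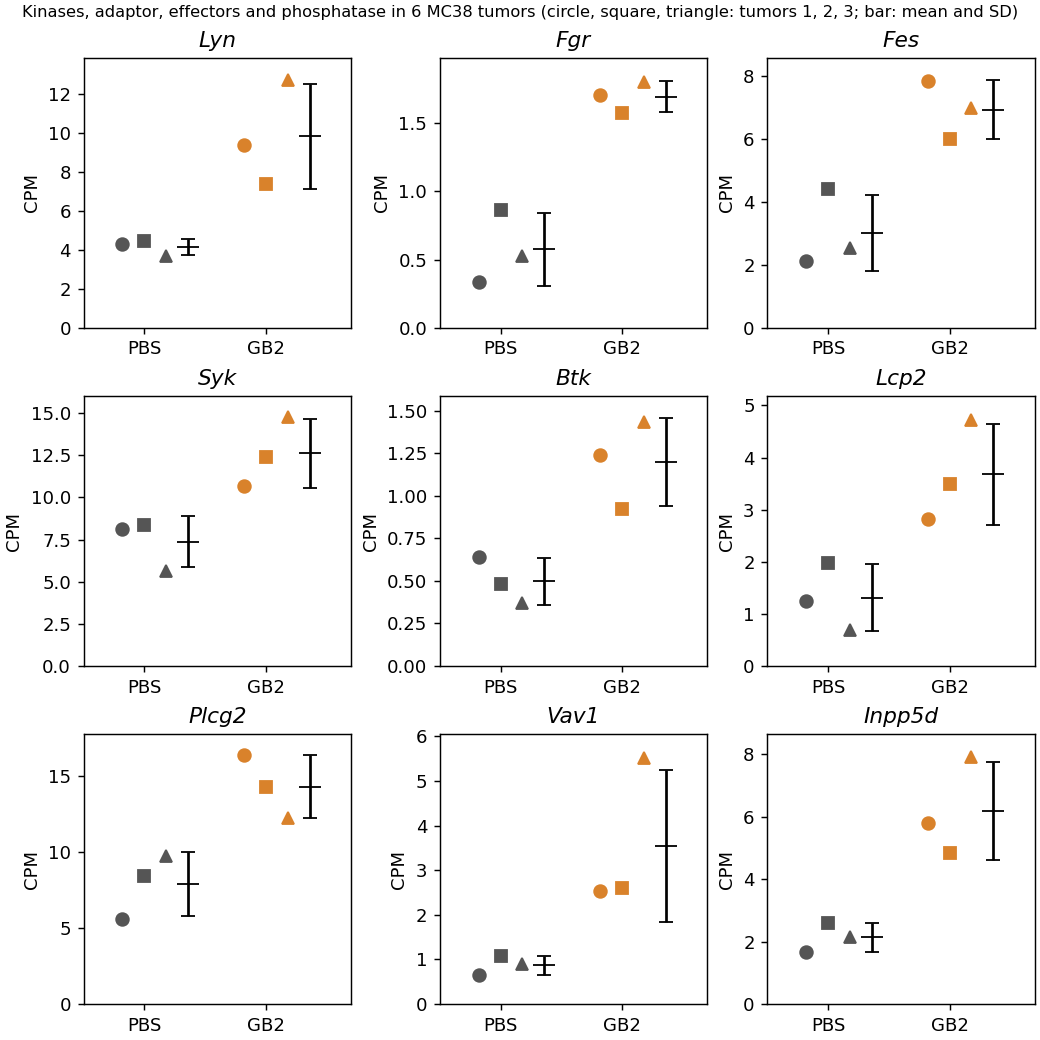
TMM-scaled CPM of the 9 genes in each tumor, by group, with a separate axis starting at 0 for each gene. Circles, squares and triangles are tumors 1, 2 and 3, and the bars give mean and SD (n = 3). In every panel the 3 GB2 tumors lie above the 3 PBS tumors, most widely in Vav1 (lowest GB2 2.37 times the highest PBS) and least in Plcg2 (1.26 times).

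The highest tumor of a group was often the same across the 9 genes, and the lowest was not. Within the controls, PBS tumor 2 was the highest in 7 of the 9 genes and in 25.9% of all genes tested, with Btk (PBS tumor 1) and Plcg2 (PBS tumor 3) as the exceptions. Within the treated group, GB2 tumor 3 was the highest in 7, against 37% of all genes, and GB2 tumor 1 in Fes and Plcg2. The lowest control was PBS tumor 1 in 5 genes and PBS tumor 3 in 4, and the lowest treated tumor was GB2 tumor 2 in 5, GB2 tumor 1 in 3 and GB2 tumor 3 in 1. Of the 36 log2 ratios between pairs of the 9 genes, 10 did not overlap between the groups, against 16.5% of the ratios over all pairs of tested genes. The pairs share genes, so this is a description. Syk, Vav1 and Inpp5d each took part in 4 of the 10 and Btk in 0. The log2 ratio of Syk to Vav1 was 3.06 ± 0.501 in PBS and 1.91 ± 0.432 in GB2, a difference of -1.15. The ratio of Plcg2 to Vav1 differed by -1.05.

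Per length, in the deposited FPKM, Plcg2 had the highest level of the 9 over the 6 tumors, at 1.73 ± 0.560 in PBS and 3.27 ± 0.488 in GB2. Lyn followed, at 0.942 ± 0.0995 and 2.37 ± 0.689 FPKM. Syk (0.726 ± 0.136 and 1.32 ± 0.222 FPKM) and Fes (0.554 ± 0.244 and 1.33 ± 0.206 FPKM) came next and were within their SDs of each other in both groups. Vav1, Lcp2 and Inpp5d came next, at 0.942 ± 0.467, 0.804 ± 0.218 and 0.794 ± 0.216 FPKM in GB2, and also lay within their SDs. Fgr (0.427 ± 0.0377 FPKM in GB2) and Btk (0.371 ± 0.0872 FPKM in GB2) had the lowest levels and could not be separated either.

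Most of the genes belong to families with broadly expressed relatives, whose values are given beside them. Src and Fyn, SRC-family kinases of many tissues, had log2 fold changes of 0.06 and -0.10, and Yes1 had 0.58 (edgeR adjusted p = 0.799). Lck, a kinase of T cells, was at 0.58. Fer, the relative of Fes, was at 0.12, Tec, the relative of Btk, at 0.13, and Zap70, the T cell relative of Syk, at -0.34 with an SE of 0.93.

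Among the effectors, Plcg1 had a log2 fold change of 0.15, Vav2 of 0.05 and Inppl1, which encodes SHIP2, of 0.16, none at an edgeR p under 0.05. Vav3 was at 2.15 (SE 0.62, adjusted p = 0.421 in edgeR, 0.0300 in DESeq2), from 0.403 ± 0.251 to 1.79 ± 0.535 CPM. Blnk, the adaptor that takes the place of SLP-76 in B cells and is also made by macrophages, was at 1.87 (SE 0.42, edgeR adjusted p = 0.269). So 2 relatives, Vav3 and Blnk, were higher at an unadjusted p under 0.05, and the others named were not.

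The difference between gene and relative was compared within each tumor. Of 10 pairs, 6 had log2 ratios that did not overlap between the groups, against the 16.5% over all pairs of tested genes. The 9 genes had no overlap by themselves, so a ratio to a relative with a fold change near 0 is not a separate result. The ratio of Lyn to Fyn was -3.67 ± 0.143 in PBS and -2.36 ± 0.316 in GB2, a difference of 1.31 on the log2 scale. For Vav1 to Vav2 the difference was 1.87, for Fgr to Src 1.48, for Inpp5d to Inppl1 1.24, for Fes to Fer 1.14 and for Plcg2 to Plcg1 0.71. Each of these 6 had an exact permutation p of 0.1, the smallest possible, and 0.167 after adjustment over the 10 pairs. The ratios of Syk to Zap70 (0.92), Btk to Tec (1.08), Lcp2 to Blnk (-0.22) and Vav1 to Vav3 (-0.37) overlapped.

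**Figure D2:**
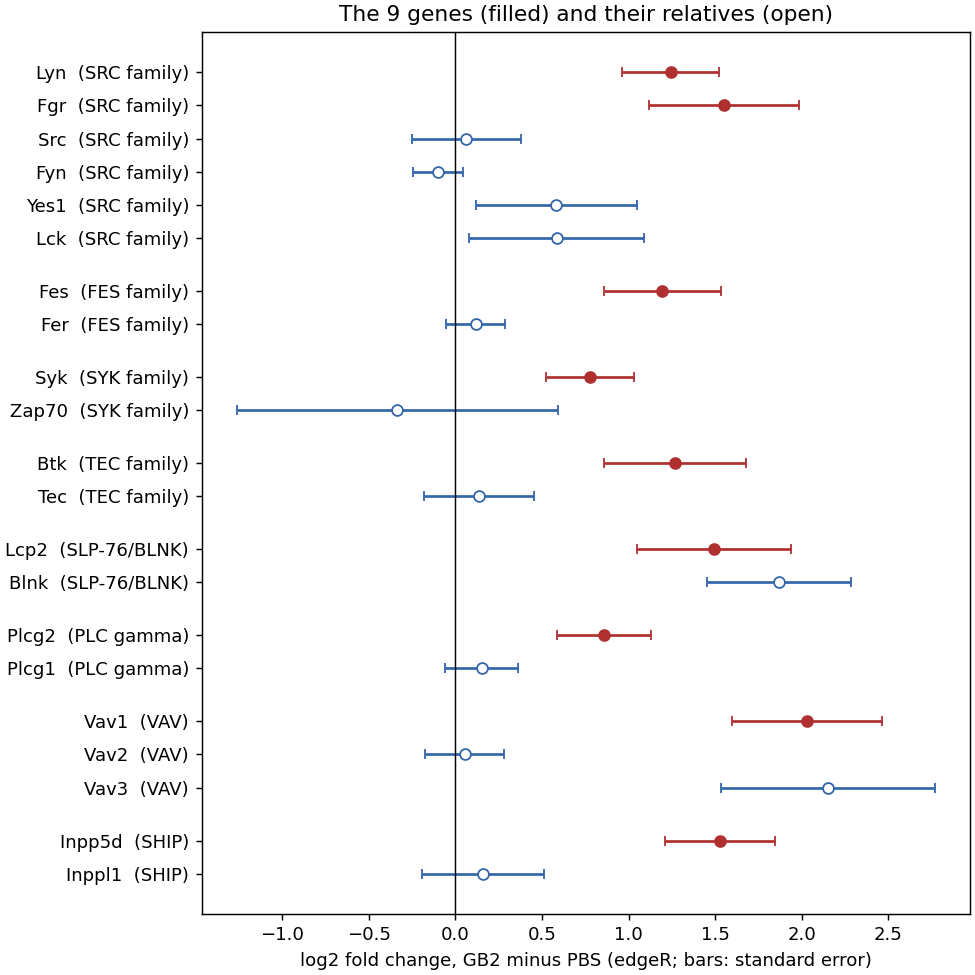
Log2 fold change, GB2 minus PBS, from edgeR for the 9 genes (filled) and their family relatives (open), with bars of 1 standard error. The filled points lie between 0.78 and 2.03, and Src, Fyn, Fer, Tec, Plcg1, Vav2 and Inppl1 lie between -0.10 and 0.16. The other open points are Zap70 at -0.34, Yes1 and Lck at 0.58, Blnk at 1.87 and Vav3 at 2.15.

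Upstream of the kinases, all 11 ITAM subunits and ITAM-coupled receptors tested were higher in GB2 at an unadjusted p under 0.05, with a median log2 fold change of 1.98, against -0.02 over all genes. Clec4e, a receptor for mycobacterial glycolipid, was at 2.42 (SE 0.39), Trem2, the receptor that artesunate is meant to inhibit, at 2.16 (SE 0.36), and Trem1, which had the largest p of the list, at 1.68 (SE 0.64). The partner subunits Tyrobp and Fcer1g, through which these receptors signal, were at 1.71 and 1.23, with edgeR adjusted p of 0.352 and 0.504. For TREM2 the study reports the other direction, with lower protein staining in GB2-treated MC38 tumors. It also reports lower Trem2 RNA and TREM2 protein in treated macrophages in culture. The Trem2 value given here is RNA of whole tumors, an unlike measure.

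Of 11 inhibitory receptors and phosphatases, 10 were higher and 4 had an unadjusted p under 0.05. Pirb, an inhibitory receptor for MHC class I, was at a log2 fold change of 1.95 (SE 0.30) and Cd300a, an inhibitory lipid receptor, at 1.85 (SE 0.32). Csk, the kinase that holds SRC-family kinases inactive, was at 0.12. Ptpn6, which encodes SHP-1, was lower in each GB2 tumor than in each PBS tumor, at 82.4 ± 6.25 CPM in PBS and 70.9 ± 3.55 CPM in GB2, a log2 fold change of -0.22 (edgeR adjusted p = 0.781).

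Among 17 other adaptors tested, 13 were higher, and 2 had an unadjusted p under 0.05: Blnk and Pik3ap1, an adaptor that links receptors to PI3K, at 1.81 (SE 0.41). Cblb, a ubiquitin ligase, was at 0.01. Of the 8 PI3K subunits, 7 were higher and 3 had a p under 0.05, led by Pik3cg, the leukocyte catalytic subunit, at 2.90 (SE 0.76), and Pik3r5, its regulator, at 1.46 (SE 0.52), while the broadly expressed Pik3ca was at 0.04. Of 15 downstream effectors, 13 were higher and 5 had a p under 0.05. Nckap1l, the blood-cell subunit of the actin-regulating WAVE complex, was at 1.70 (SE 0.28), Elmo1, which works with DOCK proteins on RAC, at 1.58 (SE 0.31), and Card9 at -0.01.

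All 7 transcription factors of myeloid genes were higher and 3 had an unadjusted p under 0.05. Spi1 was at 1.52 (SE 0.38, edgeR adjusted p = 0.317) and Cebpb at 0.22 (SE 0.76). Spi1 itself was at 1.81, 1.89 and 1.12 CPM in the PBS tumors and at 4.89, 2.92 and 6.03 CPM in the GB2 tumors, so its groups did not overlap.

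Markers of several cell types differed between the same tumors. All 10 macrophage markers were higher at an unadjusted p under 0.05, with a median log2 fold change of 1.96 and a summed level of 63.5 to 91.1 CPM in the PBS tumors and 249.7 to 337.3 CPM in the GB2 tumors. All 6 pan-leukocyte markers were higher, 3 of them at a p under 0.05, from 28.2 to 47.4 CPM up to 71.1 to 109.9 CPM in sum. Of 6 neutrophil markers tested 5 were higher, 4 at a p under 0.05, from 2.21 to 4.44 CPM up to 9.14 to 12.4 CPM in sum. Ly6g and Mpo, also on that list, were at 0 in all 6 tumors and were not tested. The 5 dendritic cell markers tested were all higher, 1 at a p under 0.05 (8.05 to 10.8 and 14.0 to 16.7 CPM in sum). The 4 mast cell markers tested were all higher, 3 at a p under 0.05 (4.08 to 6.38 and 10.5 to 12.9 CPM in sum).

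Lymphocyte markers, whose cells also use BTK, SYK, PLCG2 or VAV1, were low. So were some of the genes studied here: Btk, Fgr, Vav1 and Lcp2 averaged 0.498, 0.576, 0.866 and 1.31 CPM in PBS. The others averaged 2.14 (Inpp5d) to 7.90 CPM (Plcg2). Within the PBS group, the T cell sum and the NK and cytotoxic cell sum given below were highest in PBS tumor 2. That tumor was also the highest control in 7 of the genes studied here. The highest B cell sum of the group was in PBS tumor 3. Of 4 B cell markers tested 2 were higher, 1 of them at a p under 0.05, and their sum was 0.609 to 1.32 CPM in PBS and 1.10 to 1.98 CPM in GB2. Ms4a1, which defines B cells, had too few counts to be tested, 13 over the 6 tumors. Of 8 T cell markers 7 were lower, none at a p under 0.05 (0.368 to 6.66 and 0.691 to 3.81 CPM in sum). The 5 NK and cytotoxic cell markers tested were higher, none at a p under 0.05 (0.113 to 2.48 and 1.20 to 4.05 CPM in sum), and 2 of 4 platelet markers were higher, 0 of them at that p (2.72 to 6.48 and 4.15 to 6.49 CPM).

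Outside the leukocytes, all 7 fibroblast markers (294.5 to 525.0 CPM in PBS, 978.9 to 1350 CPM in GB2, in sum) and 5 of 6 endothelial markers (52.2 to 69.0 and 108.5 to 123.9 CPM) were higher at a p under 0.05. The 4 tumor epithelium markers tested were higher, 1 of them at a p under 0.05 (2.60 to 5.90 and 3.28 to 7.74 CPM in sum). All 6 erythroid markers were lower, 4 of them at a p under 0.05, with summed levels of 507.0 to 7475 CPM in PBS and 94.7 to 1271 CPM in GB2 that overlapped. The part of these cell types in the levels of the 9 genes was not tested.

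**Figure D3:**
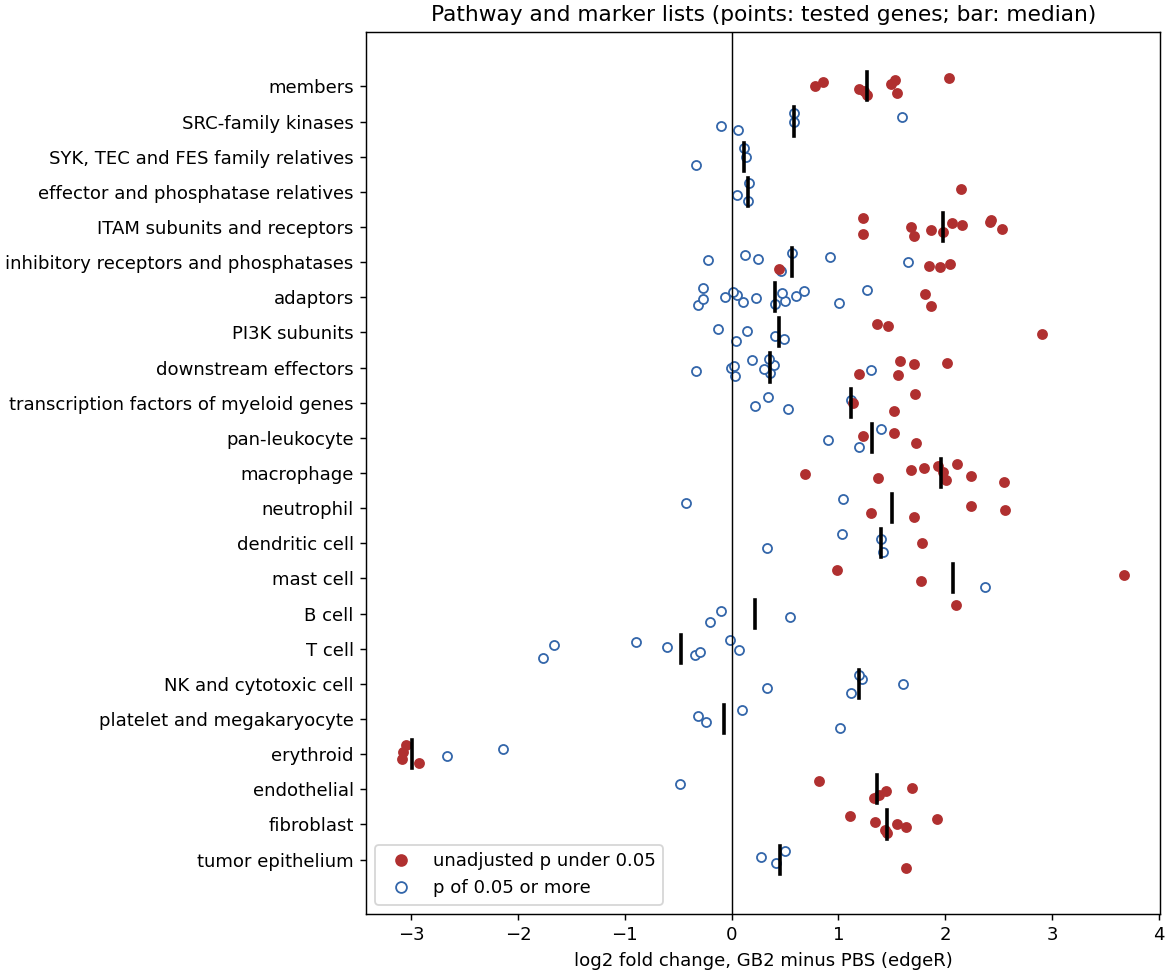
Log2 fold change, GB2 minus PBS, from edgeR for each tested gene of the pathway and marker lists, with a bar at the median of each list. Filled points have an unadjusted p under 0.05. The 9 genes have a median of 1.27, the pan-leukocyte list 1.31, the macrophage list 1.96, the SRC-family relatives 0.58, the SYK, TEC and FES relatives 0.12, and the effector and phosphatase relatives 0.16.

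The 9 genes were also set against these markers in the same tumor. Their mean log2 CPM relative to the mean of the pan-leukocyte markers was -0.78 ± 0.69 in PBS and -0.93 ± 0.23 in GB2 (SD, n = 3), and the groups overlapped. Relative to the macrophage markers it was -1.12 ± 0.27 in PBS and -1.66 ± 0.19 in GB2, a difference of -0.55 on the log2 scale with no overlap. Gene by gene, 2 of the 9, Lyn and Syk, were lower in all GB2 tumors than in all PBS tumors relative to the macrophage markers, as were 80.9% of all genes tested. Relative to the pan-leukocyte markers it was Syk alone, against 64.7% of all genes. None of the 9 was higher without overlap against either mean, as 0.107% and 0.286% of all genes were.

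Syk had the largest such difference of the 9. It was at 0.83, 0.64 and 0.84 on the log2 scale relative to the macrophage marker mean in the PBS tumors and at -0.27, -0.21 and -0.50 in the GB2 tumors, a difference of -1.09. Relative to the pan-leukocyte mean Syk differed by -0.70, also without overlap. Plcg2 came next, with differences of -0.996 and -0.60 against the macrophage and pan-leukocyte means, but its groups overlapped in both. Lyn differed by -0.67 relative to the macrophage markers with no overlap, and by -0.27 with overlap relative to the pan-leukocyte markers. Vav1 differed by 0.05 and 0.45 against the macrophage and pan-leukocyte markers, with overlap in both.

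**Figure D4:**
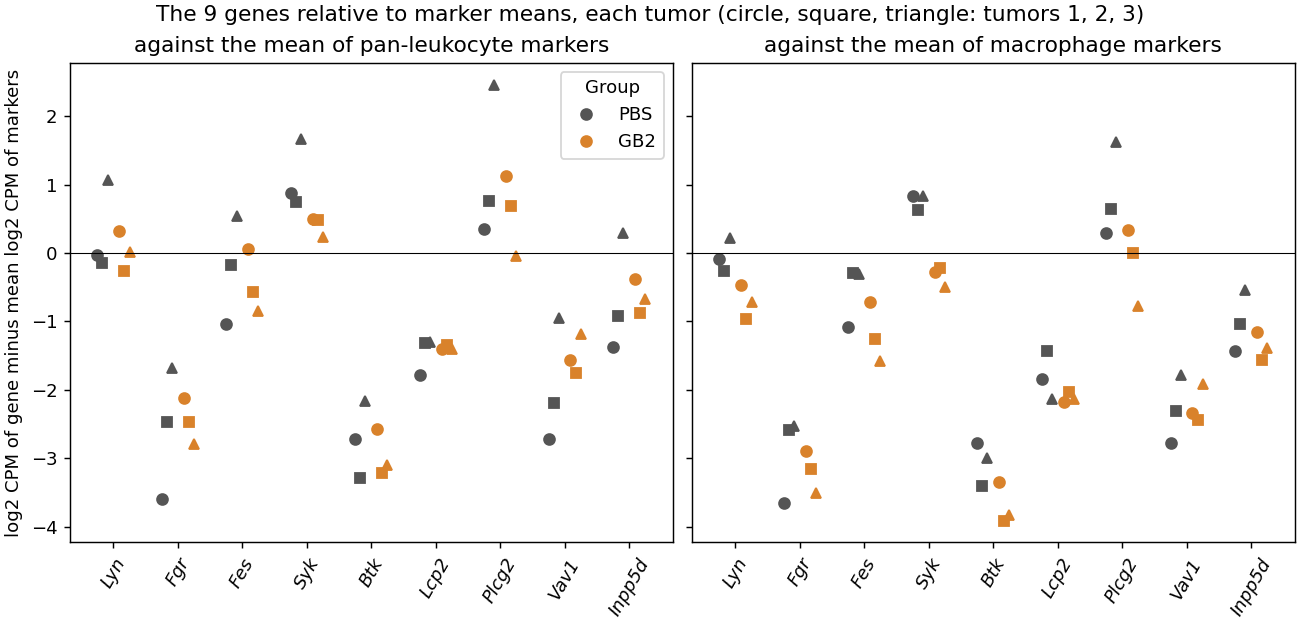
Log2 CPM of each of the 9 genes minus the mean log2 CPM of the pan-leukocyte markers (left) and the macrophage markers (right), by tumor. Circles, squares and triangles are tumors 1, 2 and 3. On the right, Syk is at 0.77 ± 0.11 in PBS and -0.33 ± 0.15 in GB2 without overlap, and Vav1 at -2.29 and -2.23.

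The genes outside the 9 whose level followed their mean most closely over the 6 tumors were Ggta1, Cxcl12, Fbn1, Irf9 and Pid1. Likeness was the root mean square difference of centred log2 CPM, which was 0.102 for Ggta1 and 0.116 for Pid1. Cxcl12 encodes a chemokine, Fbn1 the matrix protein fibrillin, and Irf9 a subunit of the interferon-response factor. Inpp5d (0.154) and Lyn (0.175) lay closest to the mean of the 9 and Vav1 (0.407) and Plcg2 (0.411) farthest.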

How the data were processed

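Bulk mRNA sequencing of 3 PBS and 3 GB2 tumors was analysed from 1 deposited gene table. The labels give oligo(dT) selection and a dUTP stranded paired-end library. The submitters' processing notes name cutadapt 1.9, HISAT2 2.2.1, StringTie 2.1.6, DESeq2, edgeR and build mm10, without their roles. The authors deposited estimated counts, as whole numbers, and FPKM values per gene and tumor. Depth per tumor is known only as these totals. A read pair may often add about 4 counts, which would make counting error larger than the totals show.

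Counts were analysed with edgeR 4.0.16 in R 4.3.3 (filterByExpr with a minimum count of 10, TMM, quasi-likelihood test, Benjamini-Hochberg over all genes tested). DESeq2 1.42.0 and limma 3.58.1 were alternatives, limma on log2(FPKM + 1) and log2(FPKM + 0.1) with a mean FPKM of at least 0.1. DESeq2 was run without the low-count filter. Log2 CPM used a prior count of 2. The scripts were tested on simulated data. The 9 genes and the lists were chosen with earlier results of these data known. Named genes were the 9, their relatives, Tyrobp, Fcer1g, Ptpn6 and Spi1, for each pathway list the 2 genes with the smallest p and the 1 with the largest, and the 5 genes most alike. Some genes under this rule are not reported here. Epcam, Ms4a1, Ly6g and Mpo, outside this rule, were named after their values were seen.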

Additional observations from a re-analysis of the deposited data

How the results depend on the processing

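The number of genes called was 0 in edgeR under every scaling and filter, in limma and with counts divided by 4, 0 to 0 when 1 tumor was left out, and 373 in DESeq2 (337 higher, 36 lower). The count of the 9 genes at an unadjusted p under 0.05 was 9 in these fits, and 7 to 9 when 1 tumor was left out: Btk and Syk were lost without GB2 tumor 3 and Plcg2 without GB2 tumor 1. The count of genes whose GB2 tumors lay above all PBS tumors was 9 to 9. The labels do not say whether same-numbered tumors are pairs. After centring within each group, the correlations of same-numbered tumors were 0.03, 0.15 and -0.24. They were not set against those of differently numbered tumors, so they do not decide whether the tumors were paired. With the replicate number as a block, 0 genes were called and 8 of the 9 genes had an unadjusted p under 0.05, Syk missing at 0.0514 in edgeR. All 126 alternative log2 fold changes of the 9 genes were positive. On log2(FPKM + 1) they were 0.26 to 0.77, since the added 1 is large beside these levels. Adjusted p of the 9 genes ranged from 0.206 to 0.998 over the edgeR and limma settings. Depth limits the genes with few counts, such as Btk, with 26 to 122 deposited counts per tumor.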

Other observations

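The table's KEGG terms, looked at after the data were seen, held 4 pathways with 5 or more of the 9 genes. Among the other genes of Fc epsilon RI signaling, which triggers mast cells, 5 of 52 tested (9.62%) were higher at an unadjusted p under 0.05. For B cell receptor signaling it was 12 of 68 (17.6%), for platelet activation 14 of 110 (12.7%) and for Fc gamma R-mediated phagocytosis 8 of 86 (9.3%), against 4.69% of all genes tested. No gene of these terms passed an adjusted p under 0.05 in edgeR.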
